A study of Mus musculus with 24 samples.

Results

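The genes described here encode 6 adenylyl cyclases (Adcy1, Adcy2, Adcy3, Adcy5, Adcy8 and Adcy9) and 4 subunits of protein kinase A (PKA; Prkar1a, Prkar1b, Prkar2b and Prkacb). They were chosen by gene symbol, with earlier results of these data known. Each of the 10 was measured by 1 probe set, among 19938 genes with a probe set of a single symbol. All 10 had a mean above the filter on dim genes and were among the 13956 genes tested. The RNA came from the suprachiasmatic nucleus (SCN), the seat of the daily clock in the hypothalamus, of C57/BL6 mice with no other genotype, drug or light treatment named. The mice had lived in a cycle of 12 h light and 12 h dark and were then held in darkness. A pool of RNA from 3 mice was hybridised to 1 array every 2 h, with 12 arrays in the second cycle (CT 42 to CT 64) and 12 in the first cycle (CT 18 to CT 40), where CT is circadian time in hours. No time has a replicate pool, so precision rests on the number of arrays and the spread around a fitted curve serves as the error.

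Adenylyl cyclases make cyclic AMP (cAMP) from ATP when a receptor coupled to a stimulatory G protein is occupied. The isoforms differ in what else acts on them: calmodulin with calcium stimulates ADCY1 and ADCY8, G protein beta-gamma subunits stimulate ADCY2, and calcium inhibits ADCY5. In resting PKA the regulatory subunits (RI alpha from Prkar1a, RI beta from Prkar1b, RII beta from Prkar2b) hold the catalytic subunits, such as C beta from Prkacb, inactive. Binding of cAMP to the regulatory subunits releases the catalytic subunits, which phosphorylate channels and the transcription factor CREB. In the SCN, cAMP is known to mediate the action of the peptides VIP and PACAP and to take part in the cellular clock.

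Promoter windows from RefSeq (GRCm38.p6) running from 250 bases before to 50 bases after an annotated start were found for 9 of the 10 genes, 22 windows in all, with none for Adcy8. Both strands were searched for the cAMP response element TGACGTCA, the E-box CACGTG bound by clock proteins, the D-box TTATGNAA and the ROR element, and no window of these genes held more than 1 of the 4. The E-box letters stood in 4 of the 22 windows and in 7.15% of all 32851 windows, and the cAMP response element in 2 overlapping windows of Prkar1a and in 1.79% of all windows. The D-box and the ROR element matched none of the 22 windows, against 3.38% and 0.219% of all windows. The matches are printed here in capitals, as 60 bases around each in 5′ to 3′ direction on the gene's strand, to show which of the genes carry these letters near a start. They are matches of letters, not tested sites.
Adcy1 (chr11:7063238-7063297, plus strand, E-box 169 bases before the start): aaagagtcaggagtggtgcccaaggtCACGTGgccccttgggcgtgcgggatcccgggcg
Prkar1b (chr5:139130668-139130727, minus strand, E-box 229 bases before 1 of 5 annotated starts): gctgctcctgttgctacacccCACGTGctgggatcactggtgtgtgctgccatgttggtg
Prkar2b (chr12:32061324-32061383, minus strand, E-box 80 bases before 1 of 2 annotated starts): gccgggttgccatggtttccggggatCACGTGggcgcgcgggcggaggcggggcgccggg
Prkar1a (chr11:109650454-109650513, plus strand, E-box 62 bases before 1 of 6 annotated starts): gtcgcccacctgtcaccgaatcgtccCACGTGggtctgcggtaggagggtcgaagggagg
Prkar1a (chr11:109650874-109650933, plus strand, cAMP response element 49 bases before another start): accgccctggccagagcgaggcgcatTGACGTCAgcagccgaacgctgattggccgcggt
The single window of Adcy2, the gene of the group with the largest 24-h amplitude, held none of these letters (chr13:68999492-68999791, minus strand): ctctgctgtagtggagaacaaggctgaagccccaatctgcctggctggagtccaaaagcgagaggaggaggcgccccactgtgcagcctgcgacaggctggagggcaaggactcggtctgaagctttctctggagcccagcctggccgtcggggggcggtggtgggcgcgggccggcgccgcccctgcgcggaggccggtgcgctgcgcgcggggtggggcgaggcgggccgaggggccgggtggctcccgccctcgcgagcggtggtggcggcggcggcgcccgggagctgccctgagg

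Before the results, 3 narrow-range arrays need naming. These, at CT 40, 62 and 64 (circadian times 14 and 16), had interquartile ranges of 2.48 to 2.67 log2 units, against 2.72 to 2.90 on the other 21. Their mean over 1194 olfactory and vomeronasal receptor genes, used as a measure of array background, lay 0.16 to 0.34 above the series mean, against -0.15 to 0.04 elsewhere. All 12 listed SCN markers were measured and above the filter, and their mean on the narrow-range arrays lay 0.57 to 0.16 below the series mean, against 0.27 below to 0.31 above on the others. Their list holds Vipr2, called rhythmic below, and the array at CT 38, also at circadian time 14, stood 0.18 below the series mean. The part of time of day in the SCN mean was not tested. Astrocyte markers (7 of 7 measured) lay 0.47 to 0.11 below the series mean on the 3 arrays and 0.11 below to 0.22 above it on the others. In tissue RNA, fewer cells of a type and less RNA per cell cannot be told apart. Here neither can be told from the narrower range and higher background of the same arrays. The part of these differences in the results below was not tested beyond fits that left out the narrow-range arrays or took the background as covariate.

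The first comparison asked which of these transcripts rise and fall over 24 h in darkness. Adcy2, Adcy8 and Prkar1b did so in the fit on all arrays, with crests between late subjective night and early subjective day and changes of 1.21 to 1.3-fold from trough to peak. The other 7 did not pass. On simulated data the 24-h test recovered 5.97% of rhythms with an amplitude of 0.1 log2 units and 77.6% of those of 0.2. A rhythm of the smaller size could therefore be missed. The test was a limma moderated F test of 24-h terms with Benjamini-Hochberg adjustment at 0.05. By the same test 7.65% of all genes tested were called. At an unadjusted p under 0.05 stood 27.5% of all genes tested and 4 of the 10. The 10 genes were chosen with earlier results of these data known, so 3 of 10 beside 7.65% is a description only. All 3 calls ended when the narrow-range arrays were left out, and also when the background was a covariate. The narrow-range arrays lie at circadian times 14 and 16, far from these crests, and the background was highest on them. Both fits thus cannot tell an array difference from a trough at those times. Under quantile normalisation Adcy2 and Adcy8 stayed called (adjusted p = 0.0172 and 0.0476) and Prkar1b did not (0.185). With array weights Adcy2 and Prkar1b stayed called (adjusted p = 0.0144 and 0.023) and Adcy8 did not (0.052).

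**Figure D1:**
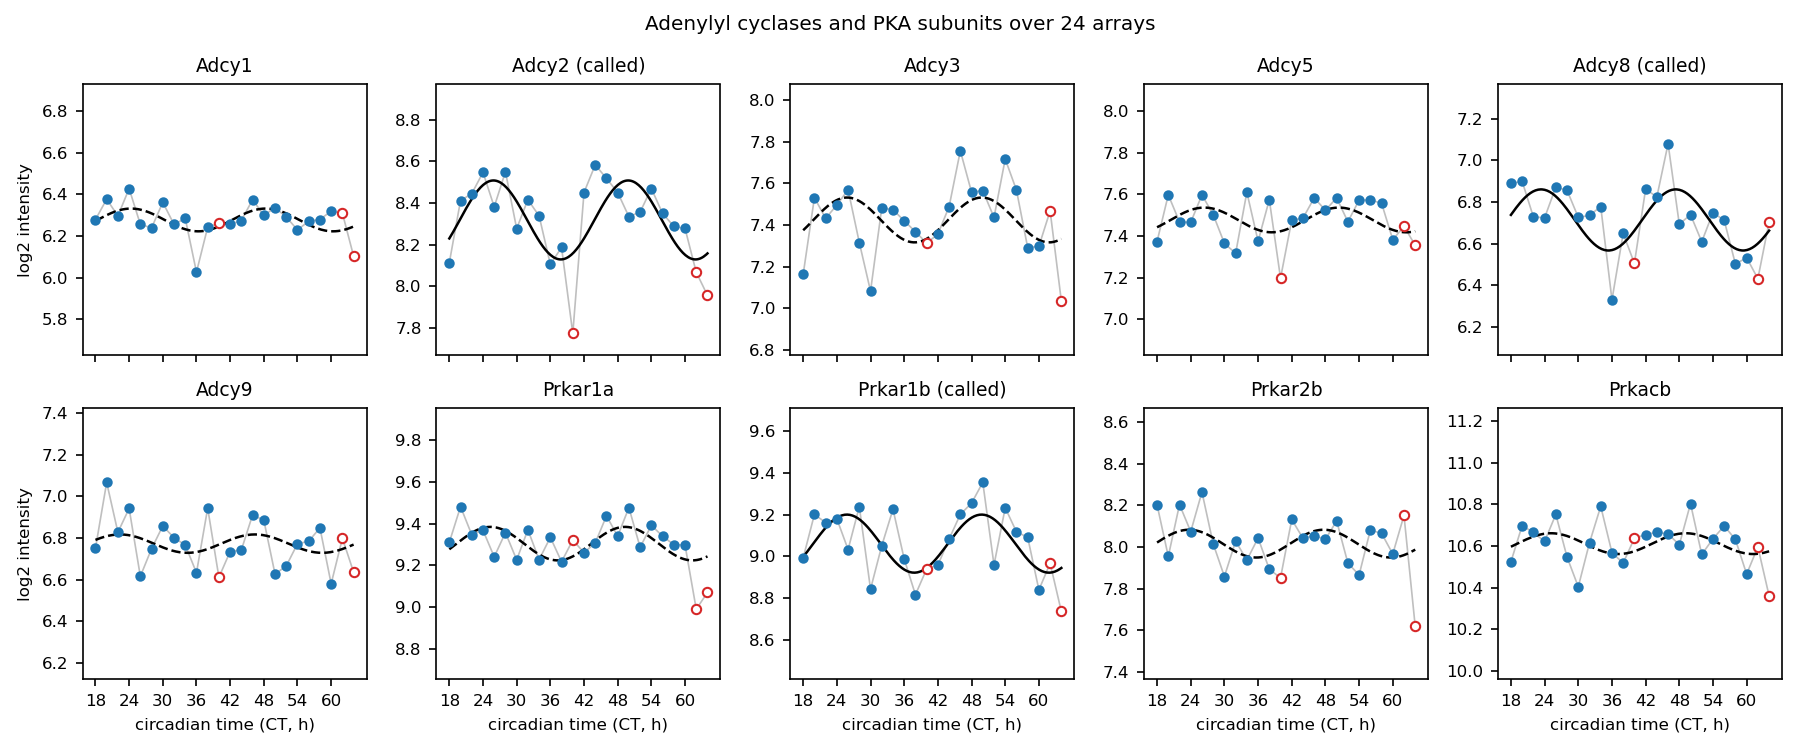
Log2 intensity of the 10 genes on each of the 24 arrays against circadian time in hours, 1 panel per gene, with panels of equal height in log2 units. The curve is the 24-h fit, solid where adjusted p was under 0.05 and dashed otherwise, and open red points are the narrow-range arrays (CT 40, 62 and 64). Adcy2 has its lowest 3 values on those arrays.

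Adcy2 encodes a cyclase stimulated by beta-gamma subunits. Its log2 intensity was lowest at CT 40 (7.77), had a median of 8.35 and was highest at CT 44 (8.58). The next lowest values, 7.96 and 8.07, were at CT 64 and CT 62, and the next highest, 8.550 and 8.547, at CT 28 and CT 24. The lowest 3 values were thus those of the narrow-range arrays, at circadian time 16 of both cycles and 14 of the second, while CT 38, at circadian time 14 of the first, stood at 8.19, and the 3 highest arrays spread over circadian times 20, 0 and 4. The fitted amplitude, from mean to peak, was 0.19 ± 0.04 log2 units (SE of the fit, 24 arrays) with a peak at 1.86 ± 0.88 h, a 1.3-fold change (adjusted p = 0.0174). It ranked at place 365 of 13956 genes by p. Without the narrow-range arrays the amplitude was 0.12 ± 0.03 with a peak at 0.665 h (adjusted p = 0.0747), and with the background covariate it was 0.10 ± 0.04 (adjusted p = 0.233). On the 6 arrays at circadian times 0 to 4 Adcy2 lay between 8.33 and 8.55, above all 6 arrays at 12 to 16 (7.77 to 8.28). These windows were picked after the peak times had been seen. Adcy2 was the 1 gene of the 10 with no overlap between them, and 3.98% of all genes tested had none in this direction. All 3 narrow-range arrays lie in the later of these windows.

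Adcy8 encodes a calcium-stimulated cyclase. Its log2 intensity ranged from 6.33 at CT 36 over a median of 6.73 to 7.08 at CT 46. The arrays at CT 20 and CT 18 followed the highest (6.90 and 6.89), and those at CT 62 and CT 58 the lowest (6.43 and 6.50), so the low arrays fell at circadian times 10 to 14 and the high ones at 18 to 22. The amplitude was 0.15 ± 0.04 with a peak at 23.4 ± 1.02 h, a 1.23-fold change (adjusted p = 0.0431). Without the narrow-range arrays it was 0.13 ± 0.04 (adjusted p = 0.0833), and with the background covariate 0.11 ± 0.04 (adjusted p = 0.188). When single arrays were omitted in turn, 13 of 24 fits lost the call, with adjusted p up to 0.0938 without CT 36. Markers of the anterior pituitary, which lies near the SCN (7 of 7 measured, 4 above the filter), had means 2.214 and 1.002 above the series mean at CT 20 and CT 18, the arrays that followed the highest in Adcy8. Their mean was also 1.024 above the series mean at CT 22, where Adcy8 stood at 6.73, and 0.72 above at CT 26, where Adcy8 stood at 6.87. At CT 46, where Adcy8 was highest, the marker mean was 0.60 below the series mean. The part of these markers in the result was not tested.

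Prkar1b encodes RI beta, a regulatory subunit enriched in neurons. Its log2 intensity was lowest at CT 64 (8.74), had a median of 9.07 and was highest at CT 50 (9.36). The next highest arrays were CT 48 (9.26) and CT 28 (9.24), and the next lowest CT 38 (8.82) and CT 60 (8.84). All of these lay at circadian times 0 to 4 or 12 to 16. Between these windows the values overlapped slightly, with 8.96 to 9.36 at 0 to 4 and 8.74 to 8.99 at 12 to 16. Outside them, circadian time 6 held both 8.84 (CT 30) and 9.23 (CT 54), and CT 34, at circadian time 10, stood at 9.23. The amplitude was 0.14 ± 0.04 with a peak at 1.79 ± 1.04 h, a 1.21-fold change (adjusted p = 0.0487). Without the narrow-range arrays it was 0.12 ± 0.04 (adjusted p = 0.142), and with the background covariate 0.10 ± 0.04 (adjusted p = 0.307). Omitting single arrays lost the call in 19 of 24 fits (adjusted p up to 0.098, without CT 50), and under quantile normalisation the amplitude was 0.09 (adjusted p = 0.185).

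Among the cyclases that did not pass, Adcy3, a cyclase known from olfactory cilia and neuronal primary cilia, had the largest amplitude, 0.11 ± 0.05 (adjusted p = 0.221). Its values ran from 7.04 at CT 64 to 7.76 at CT 46, with a second low array at CT 30 (7.08), where Adcy2 stood at 8.28, below its values at CT 28 (8.550) and CT 32 (8.42). Adcy5, the calcium-inhibited cyclase that is abundant in striatum, had an amplitude of 0.06 ± 0.03 (adjusted p = 0.373) and its lowest value, 7.20, at CT 40. Adcy1, the calmodulin-stimulated cyclase, spanned 0.40 log2 units, from 6.03 at CT 36 to 6.43 at CT 24, with an amplitude of 0.05 ± 0.02 (adjusted p = 0.304). CT 36 was also the lowest array of Adcy8. Adcy9, a widely expressed cyclase that is little stimulated by forskolin, had an amplitude of 0.04 ± 0.04 (adjusted p = 0.643), a highest value of 7.07 at CT 20 and a lowest of 6.58 at CT 60.

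Among the PKA subunits that did not pass, Prkar1a, the widely expressed RI alpha gene, came closest, with an amplitude of 0.08 ± 0.03 and an unadjusted p of 0.0449 (adjusted p = 0.172). The arrays at CT 62 and CT 64 were its lowest (8.99 and 9.07), while the remaining 22 lay between 9.22 and 9.48. Without the narrow-range arrays its amplitude was 0.05 ± 0.02. Prkar2b, the RII beta gene, had an amplitude of 0.07 ± 0.04 (adjusted p = 0.435), and its lowest array, CT 64 at 7.62, stood apart from a range of 7.85 to 8.26 on the others. Prkacb, for the catalytic subunit C beta, had an amplitude of 0.05 ± 0.03 (adjusted p = 0.497), with values from 10.4 at CT 64 to 10.8 at CT 50. Of the 10 genes, Adcy3, Prkar1b, Prkar2b and Prkacb thus had their lowest value on the array at CT 64.

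**Figure D2:**
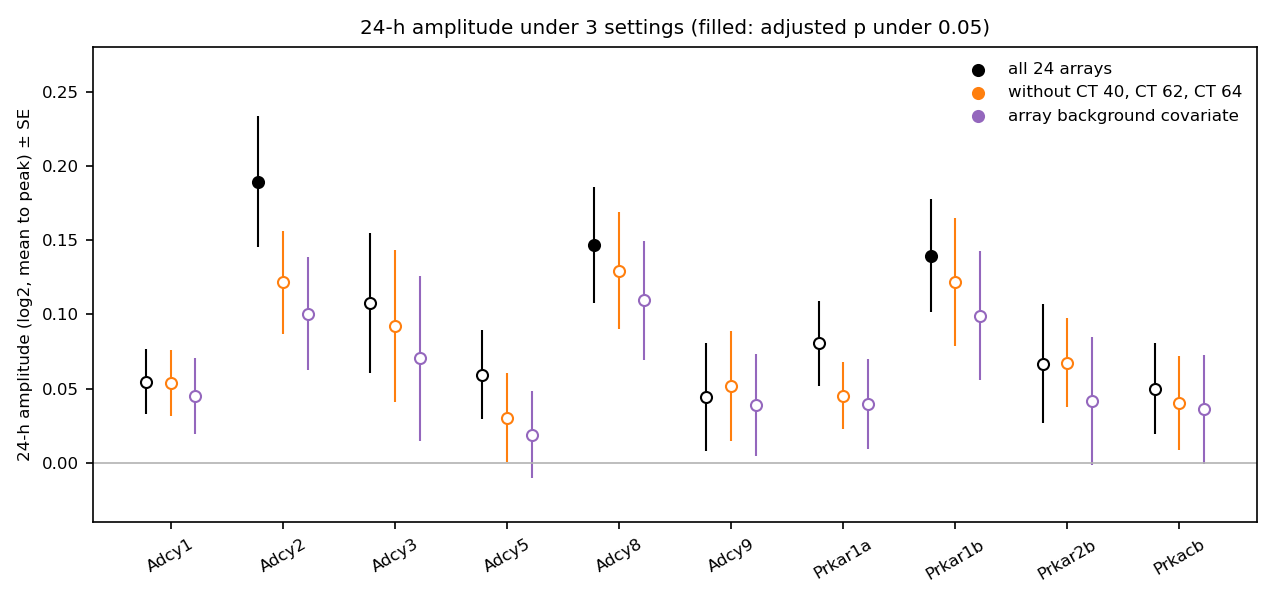
Fitted 24-h amplitude in log2 units (points) with its standard error (bars) for each gene, on all 24 arrays (black), without CT 40, 62 and 64 (orange) and with array background as covariate (purple). Filled points had an adjusted p under 0.05, which holds for Adcy2, Adcy8 and Prkar1b on all arrays and for 0 genes in the other fits.

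Without the narrow-range arrays the amplitude was smaller for 8 of the 10 genes and larger for Adcy9 and Prkar2b, and limma called 0 of 10, with 3 at an unadjusted p under 0.05. With the background covariate all 10 amplitudes were smaller, and limma called 0 of 10, with 2 at an unadjusted p under 0.05. On the 21 arrays of ordinary range Pearson's r with the background still ran from -0.15 for Prkar2b to -0.79 for Prkar1a. Oligodendrocyte markers (8 of 9 measured) were lowest at CT 40, 0.69 below the series mean, which is also the lowest array of Adcy2. They were 0.52 below it at CT 28, the next highest array of Adcy2, and 0.22 above it at CT 64, its next lowest. Over the 24 arrays Pearson's r of Adcy2 with the mean of these markers was 0.15. With their mean as a covariate Adcy2, Adcy8 and Prkar1b had amplitudes of 0.21, 0.15 and 0.14 and were called (adjusted p = 0.00176, 0.0153 and 0.0261), in a fit that called 3467 of all 13956 genes, against 1067 without that covariate.

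In the fit on all arrays the 10 fitted peaks, called or not, lay between 22.4 h (Adcy9) and 2.41 h (Adcy5). In the span from 22 to 3 h, chosen after these values were seen, lay the fitted peaks of 28.1% of all genes tested. Without the narrow-range arrays Adcy9 (19.9 h) and Prkar2b (21.2 h) peaked outside that span, and with the background covariate Adcy9 (17.2 h) and Adcy5 (4.58 h) did. The 10 genes were read from the same arrays and are not independent, and the narrow-range arrays fall opposite to that span. The members were also set against each other through the difference of their log2 values on the same array, over the 3 pairs of called genes. Adcy2 minus Adcy8 had a 24-h amplitude of 0.12 ± 0.05 (permutation p = 0.0583, adjusted p = 0.175 over 3 pairs). For Adcy8 minus Prkar1b it was 0.09 ± 0.05 (permutation p = 0.244, adjusted p = 0.366) and for Adcy2 minus Prkar1b 0.05 ± 0.05 (permutation p = 0.585, adjusted p = 0.585). A difference in timing between the early peak of Adcy8 and those of Adcy2 and Prkar1b was therefore not shown.

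**Figure D3:**
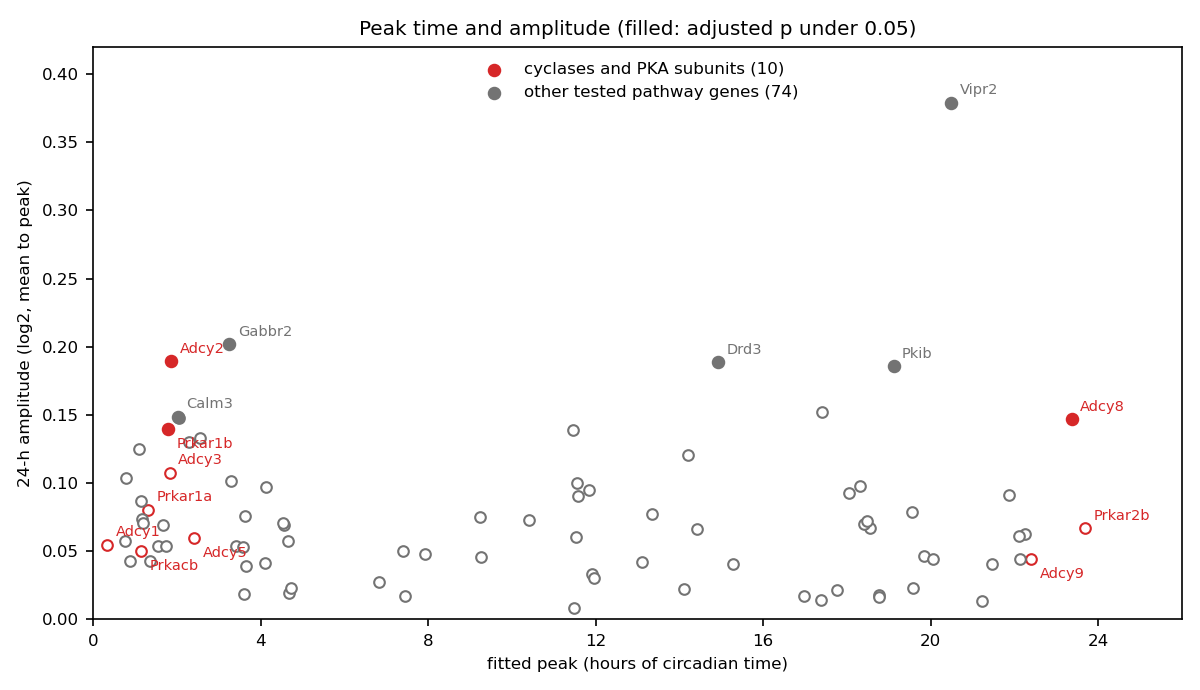
Fitted peak in hours of circadian time against 24-h amplitude in log2 units for the 10 cyclase and PKA genes (red) and 74 other tested genes of the pathway (grey). Filled points had an adjusted p under 0.05. In this fit on all arrays the red points sit at the left and right edges, which adjoin on the clock, between 22.4 and 2.41 h, while grey points also lie between 3 and 22 h.

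Of 97 other genes listed for the pathway 74 were tested, and 5 were called rhythmic. Of 5 further cyclase and PKA genes tested, 0 passed in limma (0 at an unadjusted p under 0.05), the smallest p being that of Adcy7 (amplitude 0.05 ± 0.04, adjusted p = 0.593). Among 15 PKA inhibitors and anchoring proteins 1 passed: Pkib, which encodes an inhibitor of the catalytic subunits, whose amplitude was 0.19 ± 0.05, peaking at 19.1 ± 0.95 h (adjusted p = 0.0255). It stayed called without the narrow-range arrays (adjusted p = 0.0346) and with the background covariate (0.0353). Of 6 G protein alpha subunit genes 0 passed in limma (1 at an unadjusted p under 0.05). That one was Gnal, which encodes the stimulatory subunit Golf, whose amplitude was 0.13 ± 0.04, peaking at 2.55 h (adjusted p = 0.0876). Of 24 fits that omitted single arrays 1 called Gnal, with adjusted p from 0.0314 (without CT 52) to 0.174 (without CT 64). Its adjusted p was 0.384 without the narrow-range arrays and 0.518 with the background covariate.

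Of 16 receptors that raise cAMP, 1 passed. This was Vipr2, the VIP receptor of SCN neurons, whose amplitude was 0.38 ± 0.08, peaking at 20.5 h (adjusted p = 0.00942), and it was called in both fits that ended the calls of the cyclases (adjusted p = 0.00348 and 0.00542). Of 26 receptors that lower cAMP, 2 passed: Gabbr2, a GABA-B receptor subunit (amplitude 0.20 ± 0.05, peak 3.25 h, adjusted p = 0.0356), and the dopamine receptor gene Drd3 (0.19 ± 0.05, 14.9 h, adjusted p = 0.0224). The mean of Drd3, log2 5.66, lay close to the filter on dim genes at 5.52. Neither Gabbr2 nor Drd3 was called without the narrow-range arrays (adjusted p = 0.171 and 0.0654) or with the background covariate (0.165 and 0.178). Gabbr2 also lost the call in 7 of 24 fits that omitted single arrays (adjusted p up to 0.074, without CT 64). Of 6 other effectors and calmodulin genes 1 passed. This was Calm3, a gene for calmodulin, the calcium sensor that acts on ADCY1 and ADCY8, whose amplitude was 0.15 ± 0.03, peaking at 2.03 h (adjusted p = 0.0140), and it too was not called in those fits (adjusted p = 0.0597 and 0.158). The median amplitude was 0.07 over the 10 cyclase and PKA genes and 0.07 over all genes tested.

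The genes whose log2 values followed each called gene most closely over the 24 arrays are given as a description, by Pearson's r. All share the same arrays and the array differences named above. For Adcy2 these were Marf1 (r = 0.93), Atp6ap1 (0.92) and Ctnnd2 (0.92). For Adcy8 they were Cct8 (0.84), Rngtt (0.82) and Cdk17 (0.81), and for Prkar1b Mtor (0.86), Nrxn2 (0.84) and Pdxp (0.84).

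The second comparison asked whether levels differed between the second and the first day in darkness. For none of the 10 genes did the level pass the test: limma called 0 of 10 (0 at an unadjusted p under 0.05), with 0% of all genes tested called (8.71% at an unadjusted p under 0.05). The largest difference was that of Adcy3, at 7.46 ± 0.20 in the second cycle and 7.39 ± 0.15 in the first cycle (SD, 12 arrays each). The second minus the first cycle was 0.07 with a 95% confidence interval of -0.07 to 0.21 (adjusted p = 0.759). The smallest was that of Prkacb, at 10.6 ± 0.11 in both cycles, with an interval of -0.09 to 0.09. For the called genes the intervals were -0.08 to 0.18 for Adcy2, -0.14 to 0.10 for Adcy8 and -0.10 to 0.13 for Prkar1b, so differences of up to these sizes cannot be told from 0 here.

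**Figure D4:**
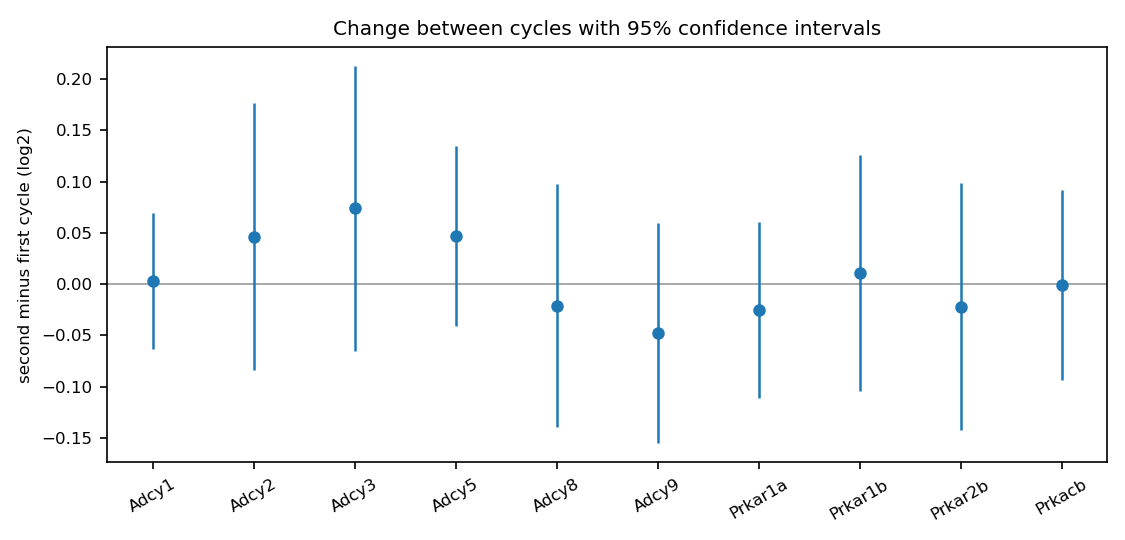
Difference in mean log2 intensity, second minus first cycle, for each gene (points) with its 95% confidence interval (bars), from the fit with 24-h terms on 24 arrays. Every interval spans 0, and the widest reach is that of Adcy3, to 0.21.

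The shape of the 24-h curve was compared between the cycles by an interaction test. Limma called 0 of 10 genes (0 at an unadjusted p under 0.05), with 0% of all genes tested called (2.42% at an unadjusted p under 0.05). On simulated data this test recovered 4.48% of changes of 0.2 log2 units and 65.7% of changes of 0.4. Changes of the size of the amplitudes seen here could therefore be missed. Prkar1a had the smallest p of the group, 0.0685 before adjustment. Its fitted amplitude was 0.14 with a peak at 2.51 h in the second cycle and 0.05 with a peak at 21.3 h in the first cycle, and its 2 lowest arrays, CT 62 and CT 64, lie in the second cycle. Adcy2 had amplitudes of 0.16 and 0.23 with peaks at 0.747 and 2.60 h in the second and the first cycle, and Adcy8 had 0.17 and 0.14 with peaks at 22.4 and 0.639 h. Prkar1b had 0.19 and 0.09 with peaks at 2.27 and 0.816 h.

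A 12-h component beside the 24-h terms was tested last. Limma called 0 of 10 genes, with 0.0358% of all genes tested called, and 2 of the 10 had an unadjusted p under 0.05. These were Adcy2, with a 12-h amplitude of 0.13 ± 0.04 (adjusted p = 0.131), and Adcy8, with 0.10 ± 0.03 (adjusted p = 0.166). At an unadjusted p under 0.05 stood 21.9% of all genes tested.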

How the data were processed

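Per the labels, the RNA was amplified with NuGen Pico WTA V2, labelled with an Encore kit and hybridised to MoGene 1.0 ST arrays. The authors deposited log2 probe set intensities normalised across arrays by RMA (1.3.1.187, in Affymetrix Expression Console, per the submitters' processing notes); further settings are not given in the sources used here. Of 35556 probe sets 21789 had 1 gene symbol, 1621 several and 12146 were not listed in the platform annotation; 21698 of the 21789 matched the RefSeq table of GRCm38.p6 by Entrez identifier. A gene was represented by its probe set of highest mean. Testing was restricted to genes at or above the 30th percentile of the mean (log2 5.52).

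Cosine and sine terms of 24 h described time (21 residual degrees of freedom). Models were fitted in limma (3.58.1; R 4.3.3), two-sided, with Benjamini-Hochberg adjusted p-values over all 13956 genes and a threshold of 0.05. Standard errors are unmoderated. Pairs of called genes were tested by 100000 permutations of the 24 times. The code was first tested on simulated data. Tables used Python 3.11.15 with NumPy 2.4.6 and pandas 2.3.3, figures matplotlib 3.10.9. Each sample is a pool of 3 mice, so p-values measure the spread between pools around the curve.

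The members, the gene lists, the tests and the alternatives were chosen with earlier results of these data known. Named were all 10 members, up to 3 called genes of each pathway list (where none was called, the one of lowest p), and the 3 genes most correlated with each called member. Listed genes without a probe set of a single symbol were not analysed here. Alternatives were other filters, all probe sets, quantile and median normalisation, array weights, a trended prior, omitted arrays, and covariates for array background, oligodendrocyte markers and linear time. The labels name no genome build, so coordinates are given only for the RefSeq promoter windows.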

Additional observations from a re-analysis of the deposited data

How the results depend on the processing

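The count of rhythmic cyclase and PKA genes, 3 on all arrays, was 1 with no filter on dim genes and 1 with a linear time covariate. It was 0 in limma without the narrow-range arrays (3 genes at an unadjusted p under 0.05), 0 with the background as covariate (2 genes) and 0 at a threshold of 0.01. In fits that each left out 1 array it ranged from 1 to 3, with Adcy2 called in all 24 (adjusted p 0.0118 to 0.0369). The count was 1 without CT 20, CT 28, CT 36, CT 38, CT 44, CT 46, CT 50, CT 54, CT 60, CT 62 or CT 64. Over the other settings the adjusted p ranged from 0.00176 to 0.233 for Adcy2, 0.0153 to 0.188 for Adcy8 and 0.023 to 0.307 for Prkar1b. The counts for a change between cycles, a change in rhythm, a 12-h component and a difference between members were 0 under every alternative run for them, circadian time as a block of 12 levels included. Over all genes the 24-h count of 1067 was 679 without the narrow-range arrays, 534 with the background covariate, 3467 with the oligodendrocyte covariate, 170 at 0.01 and 704 without CT 28. The 5 pathway genes became 3, 3, 10 and 1 in the first 4 of these. The 12-h count of 5 ranged from 0 to 9, and the count between cycles, 0, was 66 with the background covariate, 5 with array weights and 1 without CT 54. The cause of these shifts was not tested. No paired analysis was possible by replicate number because the labels give none; the block above pairs the cycles by circadian time.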
